A study of Mus musculus with 6 samples.

Results

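The 36 genes described here make cholesterol and fatty acids in the mouse cell, control that synthesis or move cholesterol out of the cell. They were chosen by symbol from these pathways and matched to the Ensembl gene identifiers of the expression files through GENCODE M21 names, which found 36 of 36 among the 54886 genes listed. By role, 17 genes belong to sterol synthesis, 9 to fatty acid synthesis, 6 to the SREBP control system and 4 to efflux and transport. Of these, 34 genes reached a mean of 1 FPKM (fragments per kilobase of exon, scaled for sequencing depth) and were tested, while Tm7sf2 and Abcg1 did not.

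RNA sequencing was carried out in GC-2spd cells, an immortalised cell line derived from mouse spermatocytes, of BALB/c background by its label. The control group comprised 3 libraries of cells in normal medium, to which the study's methods add phosphate-buffered saline, and the PM2.5 group comprised 3 libraries of cells exposed to fine particulate matter at 100 μg/mL for 48 h. The study's methods give the particles as a standard reference material of particulate matter from an urban area of the USA, suspended in the same saline. The methods describe quantitative data in general as coming from repeated experiments, but the sample labels do not say whether these replicates were separate cultures, and if they were not the p-values measure the spread between these libraries, which may be technical.

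The libraries held between 16203641 and 17997120 reads assigned to genes. Control replicate 2 stood apart, with 14.5% of its reads on mitochondrial genes against 1.65% to 1.95% in the other 5 libraries, so the comparisons were made with and without it. All 12 spermatocyte markers examined were below a mean of 1 FPKM, and Dazl, Spo11, Mael, Piwil1 and Pgk2 were at 0 in every library. The summed level of that marker list was 0.466 to 2.59 FPKM in the control group and 0.0416 to 0.612 FPKM in the PM2.5 group. The upper end in the control group came from control replicate 2, where Sycp3 was at 2.56 FPKM. In control replicates 1 and 3 Sycp3 was at 0.341 and 0.395 FPKM. Of the Sycp3 exon bases, 52.2% overlap Chpt1 on the opposite strand. Among 6 peritubular or fibroblast markers, 4 (Acta2, Col1a1, Col1a2 and Col3a1) exceeded a mean of 1 FPKM. The summed level of that list was 669.5 to 757.1 FPKM in the control group and 375.7 to 638.8 FPKM in the PM2.5 group. Col1a2 and Col3a1 were below all controls in every PM2.5 library, and Acta2 was above control replicates 1 and 3. Col1a1 was at 193.1 FPKM in PM2.5 replicate 3, against 435.1 and 437.4 FPKM in the other PM2.5 libraries. Gata4 of 8 Sertoli markers, Star and Nr5a1 of 6 Leydig markers and Cd68 of 5 macrophage markers also exceeded that mean. Cd68 was at 15.5 FPKM in control replicate 2 and at most 1.80 FPKM elsewhere. In this culture, fewer cells of a kind and less RNA per cell cannot be told apart.

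Cholesterol is built from acetyl-CoA through mevalonate, isoprenoid units, squalene and lanosterol, and fatty acids are built from the same precursor through malonyl-CoA. The genes of both routes are switched on by the SREBP transcription factors, which stay bound to their escort protein in the endoplasmic reticulum while sterols are plentiful and move to the nucleus when sterols are scarce. In the testis, sterols serve as membrane components and as the precursor of steroid hormones, and highly unsaturated fatty acids are characteristic of germ cell membranes.

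No member passed the test for a difference between PM2.5 and control cells, whether or not control replicate 2 was used. With all 6 libraries, 0 of 34 genes were called by limma at an adjusted p-value under 0.05, and the lowest adjusted p-value was 0.875, beside 0.0926% of all 11884 genes called. At an unadjusted p-value under 0.05 the count was also 0 of 34, beside 3.8% of all genes. Values were split evenly, with 18 log2 fold changes above 0 and 16 below, and their median was 0.02 on the log2(FPKM + 1) scale, the same as for all genes. Without control replicate 2, again 0 of 34 members were called, with a lowest adjusted p-value of 0.189 in limma, beside 0.993% of all genes.

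Without control replicate 2 the fold changes lay mostly below 0. This held for 26 of 34 members (76.5%), beside 52.0% of all genes, and the median was -0.16, beside -0.01 over all genes. At an unadjusted p-value under 0.05, 5 members were lower in PM2.5 cells (Fdft1, Stard4, Acly, Scd1 and Abca1), beside 7.63% of all genes, and 1 member was higher (Ebp), beside 8.23%. Together these 6 were 17.6% of the members, close to the 15.9% of all genes in either direction. By direction they were less alike, with 5 of the 6 lower, beside 907 of 1885 such genes over all genes. In 14 members every PM2.5 value lay below both remaining control values, beside 19.6% of all genes, and in 2 members every PM2.5 value lay above them, beside 17.7%.

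**Figure D1:**
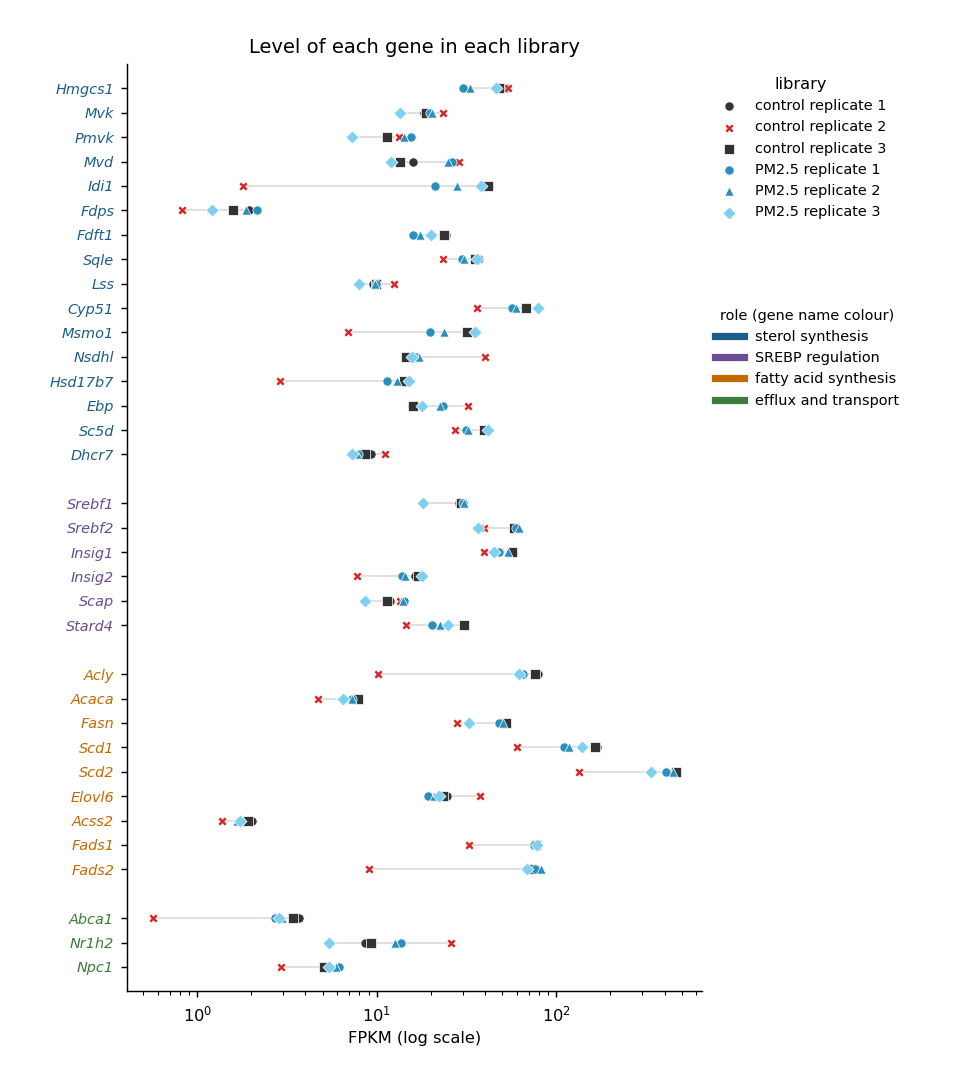
FPKM of the 34 tested genes in each of the 6 libraries on a logarithmic axis, with gene names coloured by role and grey lines joining the lowest and highest value of a gene. The red cross of control replicate 2 lies outside the range of the other 5 libraries for 29 of the 34 genes, and among the genes with a wide gap are Idi1, Fads2, Acly and Abca1.

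The promoters of the sterol synthesis genes were read for 3 short motifs known to be bound by regulators of this pathway. RefSeq on GRCm38.p6 gave a promoter, from 250 bases before to 50 bases after the start of transcription, for 27 of the 36 members. Motifs were searched on both strands. CCAAT, the sequence bound by the factor NF-Y, a partner of SREBP, was present in 14 of 14 sterol synthesis genes with a promoter, beside 43.8% of the 8460 tested genes with one. It was present in 3 of 6 fatty acid synthesis genes, 4 of 5 SREBP control genes and 0 of 2 efflux genes. GGGCGG, the GC box bound by Sp1, was present in 13 of 14 sterol synthesis genes, beside 71.9% of tested genes, and in 3 of 6 fatty acid synthesis genes. TCACNCCAC, the core of a sterol regulatory element, was found in 1 member, Hmgcs1, beside 1.43% of tested genes. A match describes these letters in this window and does not show a bound site.

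The stretch upstream of Hmgcs1 is shown because it held all 3 motifs. It covers the 250 bases before the start at chr13:119690101-119690350 on the plus strand, 5′ to 3′, with motif matches in capitals. They are 3 CCAAT boxes read on the opposite strand as ATTGG, the sterol regulatory element core that begins 137 bases upstream of the start, and GC boxes at 92 and 24 bases upstream, the former read as CCGCCC. None of these matches overlapped another.
Hmgcs1: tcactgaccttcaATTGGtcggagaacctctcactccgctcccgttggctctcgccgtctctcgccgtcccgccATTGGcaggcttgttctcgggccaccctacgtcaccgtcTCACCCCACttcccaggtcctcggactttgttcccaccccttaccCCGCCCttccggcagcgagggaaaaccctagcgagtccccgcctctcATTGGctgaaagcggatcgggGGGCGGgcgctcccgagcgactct

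The following CCAAT sites, with the motif in capitals and 10 bases on each side, belong to the 3 sterol synthesis genes whose level was furthest below the other controls in control replicate 2 (Idi1, Msmo1 and Hsd17b7) and the 3 furthest above (Nsdhl, Ebp and Mvd). Each is the site nearest the start that has both flanks. They lie on GRCm38.p6 at chr13:8885551-8885575 (minus strand) for Idi1, chr8:64733619-64733643 (minus) for Msmo1, chr1:169969264-169969288 (plus) for Hsd17b7, chrX:72918491-72918515 (minus) for Nsdhl, chrX:8193553-8193577 (plus) for Ebp and chr8:122443435-122443459 (minus) for Mvd.
Idi1: cccgggctcgCCAATcagctggagg
Msmo1: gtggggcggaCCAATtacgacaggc
Hsd17b7: gttaggcccgCCAATcgcgactcgg
Nsdhl: atgattttgcCCAATgaggctagtc
Ebp: atctgacgaaCCAATcagtacaggg
Mvd: ggccagcgggCCAATcatatggcag

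The 16 tested sterol synthesis genes showed a median log2 fold change of 0.01 with all libraries, 8 above 0 and 8 below, and of -0.11 without control replicate 2, 4 above and 12 below. Values per library are given in the order of replicates 1, 2 and 3. Hmgcs1, the cytosolic synthase that makes HMG-CoA for the mevalonate route, had 52.5, 53.8 and 48.2 FPKM in control cells and 30.3, 32.8 and 46.0 FPKM in PM2.5 cells. All 3 PM2.5 values lay below all 3 control values, although PM2.5 replicate 3 was close to them. The log2 fold change was -0.51 ± 0.23 (SE, n = 3 in each group, adjusted p = 0.875 in limma) and -0.48 ± 0.20 without control replicate 2 (adjusted p = 0.341 in limma). The gene lies on chromosome 13 from 119690379 to 119708260 (GRCm38, plus strand), and 12.1% of its exon bases overlap Gm48342 on the opposite strand.

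Fdft1, squalene synthase, the enzyme at the branch point to sterols, changed little with the choice of control libraries. It had 24.4, 24.1 and 23.7 FPKM in control cells and 15.97, 17.3 and 20.03 FPKM in PM2.5 cells, with no overlap between the groups. Its log2 fold change was -0.42 ± 0.18 (SE, adjusted p = 0.875 in limma), and it was -0.42 ± 0.12 without control replicate 2 (adjusted p = 0.213 in limma). Of its exon bases, 18.3% overlap those of Ctsb on the opposite strand, and reads of both genes could not be told apart if strand was not used in counting. In 31-base words on either strand, 31.9% of its transcript sequence was shared with other genes. The 17.6% shared with Ctsb itself is not separate from that overlap. The level of Fdft1 is thus uncertain.

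Idi1, the isomerase of the activated isoprene units, showed how far control replicate 2 stood from the others. It had 42.0, 1.80 and 41.3 FPKM in control cells, a level 23.1-fold lower in control replicate 2 than the mean of the other controls, and 21.1, 27.8 and 38.0 FPKM in PM2.5 cells. With all libraries the log2 fold change was 0.76 ± 1.09 (SE, adjusted p = 0.876 in limma), and without that library it was -0.55 ± 0.25 (adjusted p = 0.372 in limma). Sequence shared with other genes made up 27.1% of its transcripts (31-base words), so its level is uncertain too.

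Hsd17b7, which reduces the keto group formed while the methyl groups of the sterol ring are removed, followed the same pattern. It had 14.8, 2.90 and 14.2 FPKM in control cells and 11.4, 12.9 and 15.005 FPKM in PM2.5 cells, and its groups overlapped either way. The log2 fold change was 0.52 ± 0.57 (SE, adjusted p = 0.875 in limma) with all libraries and -0.15 ± 0.13 (adjusted p = 0.624 in limma) without control replicate 2.

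Not all sterol genes were low in control replicate 2, and 4 further genes are given here after their values were seen. Msmo1, the methyl sterol oxidase, had 33.9, 6.88 and 31.9 FPKM in control cells and 19.7, 23.8 and 35.4 FPKM in PM2.5 cells. Nsdhl, which acts with Msmo1 in the same removal of methyl groups, had 15.7, 39.8 and 14.6 FPKM in control cells and 16.5, 17.2 and 15.7 FPKM in PM2.5 cells. These partners of the same step therefore lay on opposite sides of the other libraries in control replicate 2. For Msmo1 the log2 fold change was 0.35 with all libraries and -0.35 without control replicate 2, and for Nsdhl it was -0.33 and 0.11.

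Ebp, the sterol isomerase that shifts the ring double bond, and Mvd, the decarboxylase that ends the mevalonate steps, were also above the other controls in control replicate 2, Mvd only slightly above PM2.5 replicate 1. Ebp had 15.7, 32.1 and 15.8 FPKM in control cells and 23.4, 22.4 and 17.9 FPKM in PM2.5 cells. Without control replicate 2 every PM2.5 value of Ebp lay above both controls, with a log2 fold change of 0.40 ± 0.14 (SE, adjusted p = 0.278 in limma). Mvd had 15.8, 28.5 and 13.5 FPKM in control cells and 26.3, 24.8 and 12.0 FPKM in PM2.5 cells, so PM2.5 replicate 3 lay with the 2 lower controls and the other PM2.5 values did not. Its log2 fold change was 0.12 with all libraries and 0.42 without control replicate 2.

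Dhcr7, the reductase that completes cholesterol, was the third sterol gene without overlap over all 6 libraries, with 8.54 to 11.1 FPKM in the control group and 7.27 to 7.88 FPKM in the PM2.5 group. Over the 34 members, 4 genes had every PM2.5 value below every control value (Hmgcs1, Fdft1, Dhcr7 and Elovl6), beside 6.85% of all genes, and 1 gene had every value above (Npc1), beside 8.35%. The remaining sterol genes (Mvk, Pmvk, Fdps, Sqle, Lss, Cyp51 and Sc5d) had log2 fold changes between -0.18 and 0.23 with all libraries and between -0.19 and 0.05 without control replicate 2, with overlapping groups in both. Tm7sf2, a sterol reductase, was listed at 0.559 to 0.924 FPKM in all libraries and was not tested.

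By step, the 6 genes from Hmgcs1 to Fdps showed a median log2 fold change of 0.05 with all libraries and -0.04 without control replicate 2. The 3 genes of squalene and lanosterol formation (Fdft1, Sqle and Lss) had medians of -0.18 and -0.16. The 7 tested genes after lanosterol had medians of 0.07 and -0.15, so the sign turned for the mevalonate steps and for the steps after lanosterol.

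The values of the 9 fatty acid synthesis genes turned with the choice of control libraries. Their median log2 fold change was 0.07 with all libraries, with 7 of 9 above 0, and -0.20 without control replicate 2, with 8 of 9 below 0. In 7 of these genes (Acly, Acaca, Fasn, Scd1, Scd2, Elovl6 and Acss2) every PM2.5 value lay below control replicates 1 and 3, a share of 77.8% beside the 19.6% of all genes given above. The values come from the same 5 libraries, so these genes are not independent of each other.

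Acly, which cleaves citrate to supply acetyl-CoA to both routes, had 79.4, 10.2 and 76.0 FPKM in control cells and 65.2, 63.3 and 62.1 FPKM in PM2.5 cells. The 3 PM2.5 values were close together and lay between control replicate 2 and the other controls. The log2 fold change was 0.65 ± 0.78 (SE, adjusted p = 0.875 in limma) with all libraries and -0.29 ± 0.09 (adjusted p = 0.226 in limma) without control replicate 2.

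Scd1, a desaturase that makes oleate from stearate, had 168.0, 60.1 and 164.9 FPKM in control cells and 110.1, 117.6 and 138.6 FPKM in PM2.5 cells. Its log2 fold change was 0.03 ± 0.45 (SE, adjusted p = 0.980 in limma) with all libraries and -0.45 ± 0.13 (adjusted p = 0.213 in limma) without control replicate 2. Scd2, the second desaturase and the member with the highest level, chosen after its values were seen, had 461.0, 133.2 and 462.6 FPKM in control cells and 406.8, 444.9 and 335.8 FPKM in PM2.5 cells. Scd2 made up 42.1% to 51.4% of the summed FPKM of the 9 genes in every library.

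The ratio of Scd2 to Scd1 was 2.74, 2.22 and 2.81 in control cells and 3.69, 3.78 and 2.42 in PM2.5 cells. PM2.5 replicates 1 and 2 lay above all controls, and PM2.5 replicate 3 lay among them, so the groups overlapped. Of the Scd1 sequence, 8.18% was shared with other genes, and of the Scd2 sequence 6.81%.

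Fasn, the synthase that assembles palmitate, had 51.7, 27.9 and 52.7 FPKM in control cells and 47.7, 50.2 and 32.7 FPKM in PM2.5 cells. Its lowest PM2.5 value was that of replicate 3, and the log2 fold change was 0.01 ± 0.33 (SE, adjusted p = 0.989 in limma) with all libraries and -0.28 ± 0.20 (adjusted p = 0.551 in limma) without control replicate 2. Acaca, the carboxylase that makes malonyl-CoA, was listed at 4.72 to 7.84 FPKM in the control group and 6.48 to 7.31 FPKM in the PM2.5 group, and 33.5% of its sequence was shared with other genes.

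Elovl6, the elongase of palmitate, was the member of this route that was higher in control replicate 2. It had 24.5, 37.3 and 23.5 FPKM in control cells and 19.2, 20.8 and 22.2 FPKM in PM2.5 cells, with no overlap between the groups. The log2 fold change was -0.41 ± 0.24 (SE, adjusted p = 0.875 in limma) with all libraries and -0.20 ± 0.10 (adjusted p = 0.400 in limma) without control replicate 2.

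Fads2, the delta-6 desaturase of polyunsaturated fatty acids, had the largest log2 fold change of the members with all libraries, 0.99 ± 0.81 (SE, adjusted p = 0.875 in limma). It had 76.6, 9.05 and 71.8 FPKM in control cells and 75.8, 82.1 and 68.3 FPKM in PM2.5 cells, so that the difference rested on control replicate 2. Without that library the log2 fold change was 0.02, with a 95% interval from -0.27 to 0.31. Fads1, the delta-5 desaturase, behaved alike, with 78.4, 32.6 and 77.4 FPKM in control cells and 75.3, 77.7 and 77.5 FPKM in PM2.5 cells, and its interval without control replicate 2 ran from -0.23 to 0.19. Acss2, which activates acetate, was listed at 1.37 to 2.03 FPKM in every library.

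**Figure D2:**
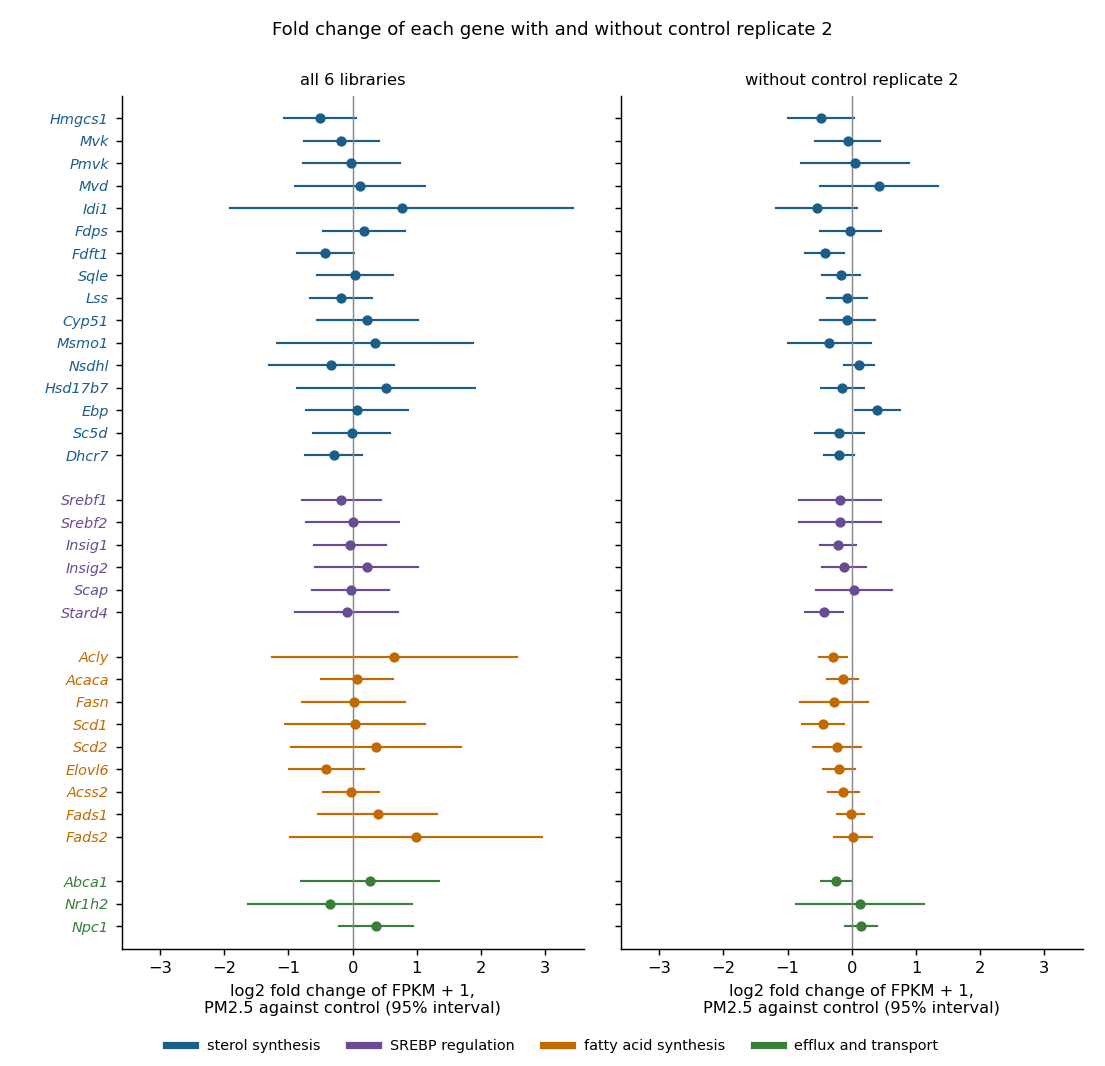
Log2 fold change of FPKM + 1, PM2.5 against control, for the 34 tested genes, with 95% intervals from limma, with all 6 libraries on the left and without control replicate 2 on the right. Most intervals narrow without that library, those of Pmvk and Srebf1 do not, 26 of 34 points then lie below 0, and all 9 fatty acid synthesis genes except Fads2 are among them.

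Set side by side, the pathway means showed the same dependence. The mean log2(FPKM + 1) of the 16 sterol genes was 4.38, 3.96 and 4.32 in control cells and 4.22, 4.27 and 4.23 in PM2.5 cells. For the 9 fatty acid genes it was 5.59, 4.31 and 5.56 in control cells and 5.39, 5.44 and 5.32 in PM2.5 cells. In both routes the PM2.5 libraries lay above control replicate 2 and below the other controls. The sterol mean minus the fatty acid mean was -1.21, -0.34 and -1.24 in control cells and -1.17, -1.17 and -1.09 in PM2.5 cells, so without control replicate 2 the gap between routes was -1.22 ± 0.02 (SD, n = 2) in control and -1.14 ± 0.04 (SD, n = 3) in PM2.5 cells. The medians of the fold changes differed between routes by -0.06 (sterol minus fatty acid) with all libraries and by 0.09 without control replicate 2. The difference was -0.31 without control replicate 1 and -0.34 without control replicate 3, so it turned with the control libraries used.

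**Figure D3:**
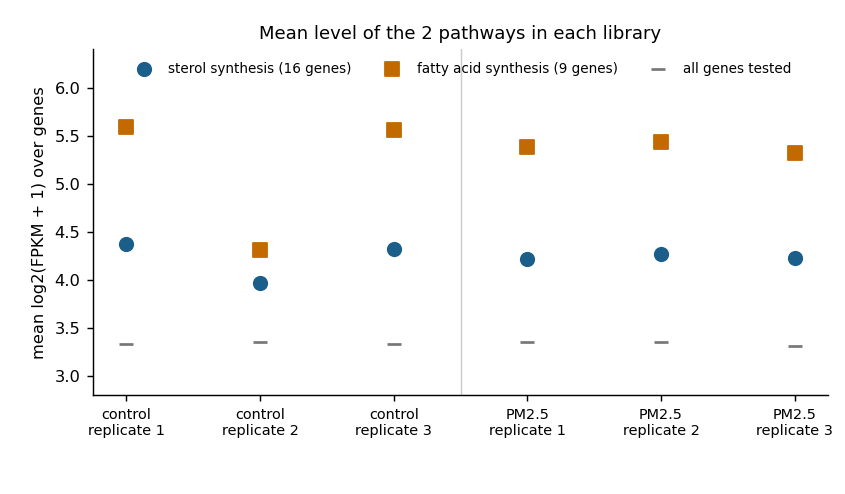
Mean log2(FPKM + 1) over the 16 sterol and 9 fatty acid synthesis genes and over all genes tested, in each library. Control replicate 2 is the lowest library in both routes, at 3.96 and 4.31, while the mean over all genes stays between 3.31 and 3.36 in every library.

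Of the control system, Srebf2, which encodes the SREBP that favours sterol genes, had 58.7, 39.5 and 58.0 FPKM in control cells and 59.4, 61.7 and 36.6 FPKM in PM2.5 cells. Srebf1, whose SREBP favours fatty acid genes, had 28.8, 28.6 and 29.5 FPKM in control cells and 30.3, 30.4 and 18.1 FPKM in PM2.5 cells. In both genes PM2.5 replicate 3 was the lowest library and PM2.5 replicates 1 and 2 lay above all controls. With all libraries the log2 fold changes were -0.0017 ± 0.30 for Srebf2 and -0.17 ± 0.26 for Srebf1, and without control replicate 2 they were -0.19 ± 0.25 and -0.18 ± 0.25 (SE, adjusted p = 0.749 and 0.752 in limma).

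Scap, the escort of the SREBPs, had 11.9, 13.4 and 11.4 FPKM in control cells and 14.1, 14.0 and 8.54 FPKM in PM2.5 cells, again lowest in PM2.5 replicate 3, with log2 fold changes of -0.03 with all libraries and 0.03 without control replicate 2. Insig1, which holds Scap in the endoplasmic reticulum and is itself an SREBP target, had 57.3, 39.7 and 56.3 FPKM in control cells and 47.9, 53.8 and 45.0 FPKM in PM2.5 cells. Insig2, its homologue, had 16.4, 7.75 and 16.9 FPKM in control cells and 13.7, 14.4 and 17.8 FPKM in PM2.5 cells. With all libraries the log2 fold changes were -0.05 ± 0.23 for Insig1 and 0.22 ± 0.33 for Insig2 (SE). Without control replicate 2, Insig1 had no overlap between the groups and a log2 fold change of -0.22 ± 0.11 (SE, adjusted p = 0.413 in limma), and Insig2 overlapped at -0.12 ± 0.13 (adjusted p = 0.697 in limma).

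Stard4, a carrier of sterols within the cell, had the lowest adjusted p-value of the members without control replicate 2. It had 30.6, 14.6 and 30.7 FPKM in control cells and 20.2, 22.6 and 24.9 FPKM in PM2.5 cells. The log2 fold change was -0.09 ± 0.33 (SE, adjusted p = 0.935 in limma) with all libraries and -0.43 ± 0.11 (adjusted p = 0.189 in limma) without control replicate 2. The PM2.5 values lay well below the 2 other controls and well above control replicate 2.

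Among efflux and transport genes, Abca1, the transporter that loads cholesterol onto lipoproteins, had 3.68, 0.565 and 3.41 FPKM in control cells and 2.71, 2.95 and 2.86 FPKM in PM2.5 cells. Its log2 fold change was 0.27 ± 0.44 (SE, adjusted p = 0.880 in limma) with all libraries and -0.24 ± 0.09 (adjusted p = 0.304 in limma) without control replicate 2. Abcg1, a second transporter, was listed at 0 to 0.0818 FPKM and was not tested. Npc1, which exports cholesterol from lysosomes, had 5.27, 2.93 and 5.06 FPKM in control cells and 6.19, 5.90 and 5.38 FPKM in PM2.5 cells, all PM2.5 values above all controls, with a log2 fold change of 0.36 ± 0.24 (SE, adjusted p = 0.875 in limma) and of 0.14 ± 0.10 without control replicate 2.

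Nr1h2, the sterol-sensing receptor LXR beta, varied widely within its groups. It had 8.63, 25.8 and 9.29 FPKM in control cells and 13.6, 12.6 and 5.41 FPKM in PM2.5 cells. PM2.5 replicates 1 and 2 lay above control replicates 1 and 3, and PM2.5 replicate 3 lay below them. Its log2 fold change was -0.35 ± 0.52 (SE) with all libraries and 0.13 ± 0.39 without control replicate 2.

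Control replicate 2 lay outside the range of the other 5 libraries in 29 of 34 members (85.3%), beside 82.9% of all genes, so the extent was that of the whole library. Of the fatty acid genes, 8 of 9 had their lowest value in control replicate 2, beside 43.6% of all genes, with a median difference from the other controls of -1.23 on the log2(FPKM + 1) scale, while over all genes this median was -0.07. Of the sterol genes, 7 of 16 had their lowest and 7 of 16 their highest value there, with a median difference of 0.05. Among further genes of sterol metabolism, 11 of 15 had their lowest value in control replicate 2, with a median difference of -0.55, and for further fatty acid genes the median was -0.56, so the even split was not shared by all sterol genes. The mitochondrial share moved with this library, and its part in these differences was not tested.

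**Figure D4:**
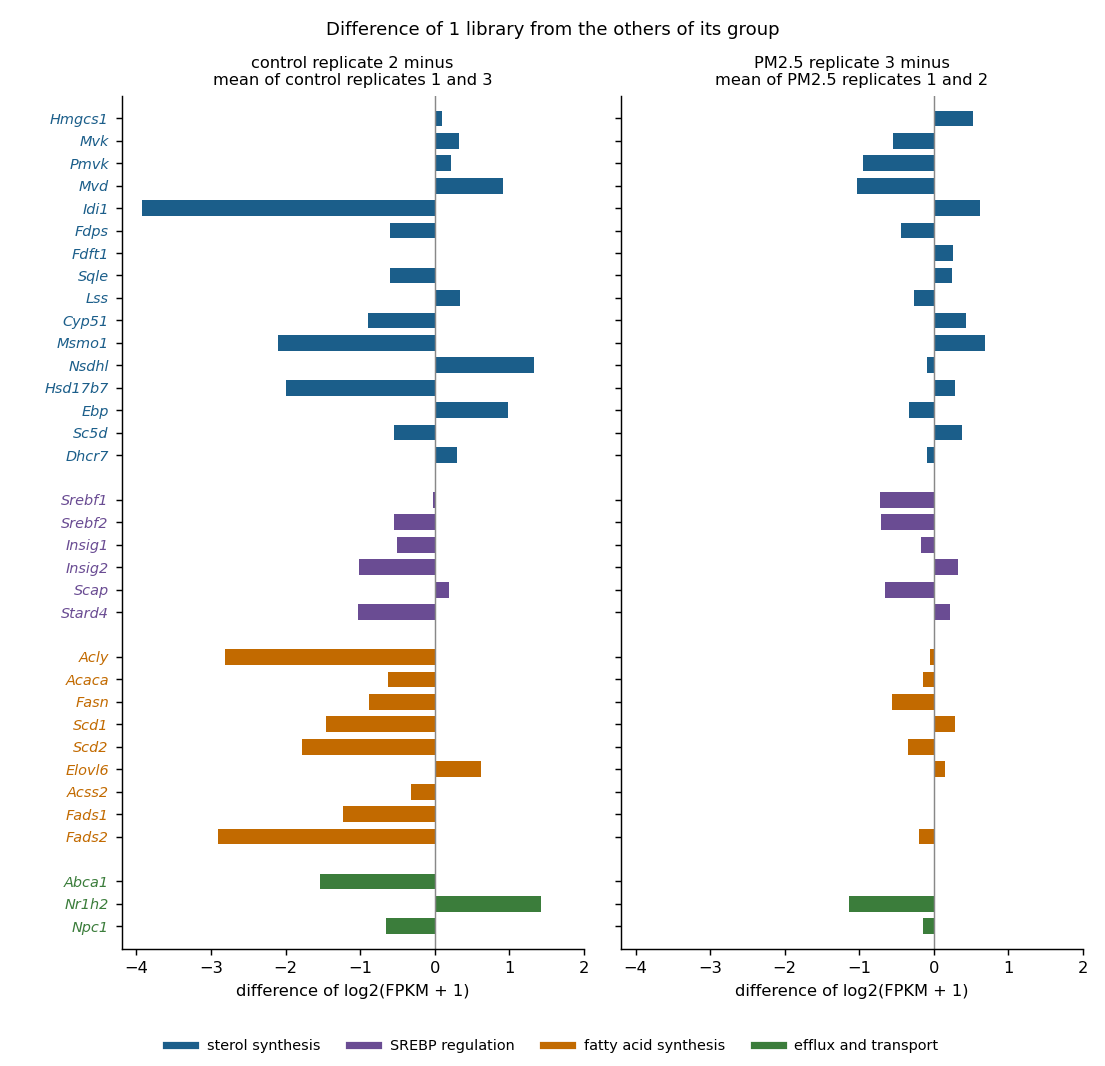
Difference in log2(FPKM + 1) of control replicate 2 from the mean of the other controls (left) and of PM2.5 replicate 3 from the mean of the other PM2.5 libraries (right), for the 34 tested genes. On the left, 8 of 9 fatty acid genes point down and the sterol genes point both ways, with Idi1 at -3.93 and Nsdhl at 1.34, and on the right the values range from -1.14 for Nr1h2 to 0.68 for Msmo1.

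PM2.5 replicate 3 differed from the other PM2.5 libraries along the GC content of the genes. Across the 34 members, its difference from PM2.5 replicates 1 and 2 ran against the GC content of the longest transcript with a Spearman rho of -0.838, and across 11735 genes with a rho of -0.714. These points share the same 3 libraries, so the values are descriptive. GC-rich members such as Nr1h2 (60.6%), Scap (59.1%), Mvd (59.0%) and Srebf1 (58.4%) were lower in PM2.5 replicate 3, and GC-poor members such as Idi1 (41.9%), Hmgcs1 (43.1%) and Msmo1 (44.7%) were higher. The log2 fold changes without control replicate 2 also ran with GC content, with a rho of 0.432 across the members and 0.327 across all genes.

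**Figure D5:**
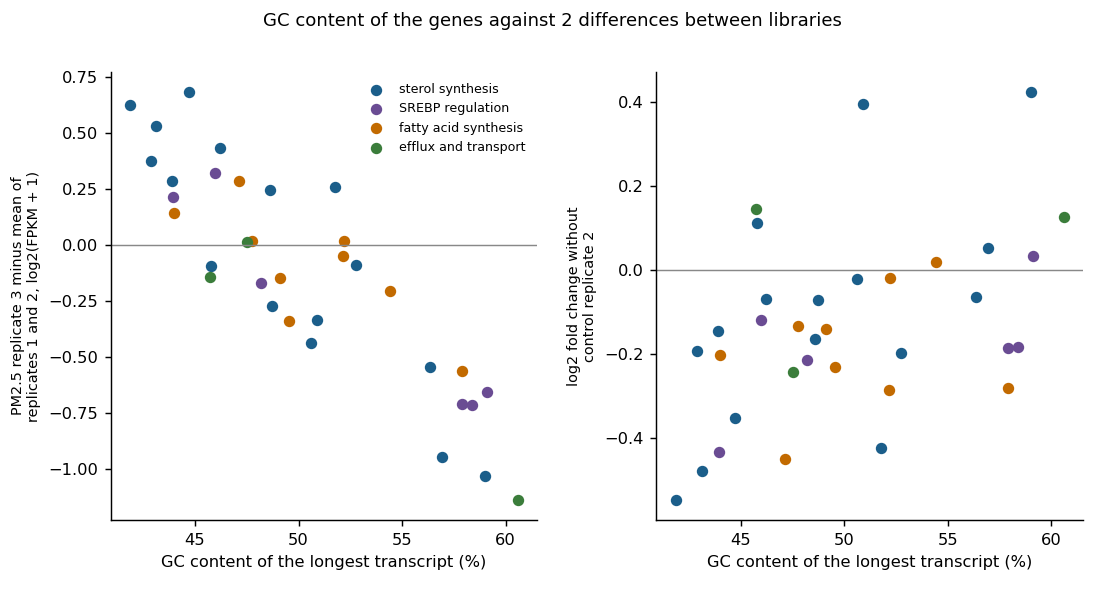
GC content of the longest transcript of each of the 34 tested genes against its difference in PM2.5 replicate 3 from the other PM2.5 libraries (left) and against its log2 fold change without control replicate 2 (right), coloured by role. The left panel falls from above 0 for GC-poor genes to -1.14 for Nr1h2 at 60.6% GC, and the right panel rises with more scatter.

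Leaving out PM2.5 replicate 3 as well, a choice made after the values were seen, left 2 libraries in each group that were close to each other. The library left out was the PM2.5 library closest to control replicates 1 and 3. It correlated with both at 0.972, and with PM2.5 replicates 1 and 2 at 0.950 and 0.958. PM2.5 replicates 1 and 2 correlated with these controls at 0.9551 to 0.9645. Which PM2.5 libraries were the unusual ones was not tested. With 2 libraries in each group, 13 members were called lower by limma at an adjusted p-value under 0.05, beside 23.6% of all genes. Another 5 were called higher, beside 23.5%. Together they were 52.9% of the members, beside 47.1% of all genes called. The 13 lower genes comprised 8 sterol genes (Hmgcs1, Idi1, Fdft1, Sqle, Cyp51, Msmo1, Hsd17b7 and Sc5d), 3 fatty acid genes (Acly, Scd1 and Elovl6), Insig2 and Stard4, and their GC content was 41.9% to 52.1%. The 5 higher genes were Pmvk, Mvd, Ebp, Scap and Nr1h2, with a GC content of 50.9% to 60.6%.

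In that comparison the largest differences within sterol synthesis pointed in opposite directions. Mvd was higher by a log2 fold change of 0.77 ± 0.08 (SE, adjusted p = 0.0017 in limma), and Idi1 was lower at -0.76 ± 0.13 (adjusted p = 0.010 in limma). Hmgcs1 was at -0.66 ± 0.07 (adjusted p = 0.0014 in limma) and Scd1 at -0.54 ± 0.05 (adjusted p = 0.0013 in limma). Over all members the log2 fold changes ran with GC content with a rho of 0.680, and over all genes with a rho of 0.531. With 2 libraries in each group, the spread behind these p-values is that within pairs whose levels correlated at 0.992 in control and 0.991 in PM2.5 cells.

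Each library was then corrected for GC content and exon length with control replicate 2 left out, again a choice made after the values were seen. In limma 2 of 34 members were called, both lower. Of all 11735 genes in this fit, 416 were called lower and 407 higher, 7.01% in either direction. These were Stard4, at -0.33 ± 0.06 (SE, adjusted p = 0.043 in limma), and Scd1, at -0.42 ± 0.08 (adjusted p = 0.045 in limma). Fasn, at -0.33 ± 0.07, and Acly, at -0.31 ± 0.07, had adjusted p-values of 0.054 and 0.057 in limma. At an unadjusted p-value under 0.05 the count was 11 of 34, or 32.4%, beside 26.6% of all genes. Of the 34 members, 30 lay below 0, beside 51.15% of all genes, and the median was -0.09 beside -0.01 over all genes. The 30 included all 9 fatty acid genes and all 6 genes of the control system. Of the 11 members with an unadjusted p-value under 0.05, 10 were lower, beside 1528 of 3121 such genes over all genes.

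Other genes around these pathways were described in the same way. Of 15 further genes of sterol and isoprenoid metabolism and its transcriptional control, 15 were tested and 0 were called in either comparison, with a median of 0.13 with all libraries and -0.06 without control replicate 2. The largest log2 fold change with all libraries was that of Lbr, which encodes a sterol reductase of the nuclear envelope, at 0.94. Lbr had 27.3, 1.93 and 27.5 FPKM in control cells and 22.04 to 26.4 FPKM in PM2.5 cells. Mbtps2, the protease that makes the second cut in SREBP, followed at 0.42.

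Of 23 further genes of fatty acid and glycerolipid synthesis, 19 were tested and 0 were called in either comparison, with a median of 0.15 with all libraries and 0.03 without control replicate 2. Gpam, which starts triacylglycerol synthesis, had 34.3, 1.85 and 32.7 FPKM in control cells and 26.8, 26.6 and 21.7 FPKM in PM2.5 cells. Its log2 fold change changed from 0.79 with all libraries to -0.41 without control replicate 2, a swing like that of Acly and Idi1. Hacd2, a dehydratase of fatty acid elongation, was at -0.75 and -0.27. Of 10 further genes of efflux and lysosomal transport, 9 were tested and 0 were called in either comparison, with Scarb1, the receptor for high-density lipoprotein, at 0.46 and 0.004 and Npc2, the lysosomal partner of Npc1, at 0.43 and 0.16.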

How the data were processed

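The authors built NEBNext Ultra libraries, read them in pairs on an Illumina Novaseq and deposited FPKM per gene, and HISAT2 2.0.5, featureCounts 1.5.0-p3 and build mm9 are named in the submitters' processing notes. Gene names, lengths and positions were taken here from GENCODE M21 on GRCm38. FPKM times exon length gave whole reads for 98.1% to 98.4% of values under 50 reads (tolerance 0.05), and the implied denominators followed size factors, so the FPKM were taken as already scaled between libraries. All columns were mapped to samples.

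The 11884 genes whose FPKM averaged 1 or more over the 6 libraries were tested with limma 3.58.1 (trend and robust, R 4.3.3, statmod 1.5.0) on log2(FPKM + 1), with Benjamini-Hochberg adjustment over all genes tested. Fold changes are on that scale and understate those of low genes. The same fit was made without control replicate 2. The fit and the GC correction were also run on simulated data. For the fit those libraries were alike, with none set apart as control replicate 2 is, so that run does not test the fit on these libraries. The members and lists were chosen with earlier results of these data known. Values per library were given for the 3 members of each role with the largest absolute log2 fold change in either fit and for Srebf1, Srebf2, Insig1, Insig2 and Scap, and further genes were the 2 with the largest change in each list. Any other member with such values was singled out after they were seen. Alternatives were other pseudocounts, filters and scalings, voom on recovered reads, leaving out libraries and a replicate block. Leaving out 2 libraries and the correction for GC content and exon length (splines with 5 degrees of freedom, 11735 genes) were added after the data were seen. The splines were fitted to each library's difference from the mean of the libraries used. A difference between groups that runs with GC content or exon length is therefore removed as well. Promoters are from RefSeq.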

Additional observations from a re-analysis of the deposited data

How the results depend on the processing

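No member was called with another pseudocount, filter or scaling, with voom, with the replicate block or without any 1 library, the lowest adjusted p-value in limma being 0.189 without control replicate 2. Over all genes, the 11 calls of the 6 libraries became 0 with the replicate block, with no filter on low values, with a mean FPKM of at least 5 and with voom, 6 with scaling to total reads and 17 with the GC content and length correction. Leaving out 1 library gave 0 calls, except 118 without control replicate 2, and then leaving out a further library gave 0, except 5602 without PM2.5 replicate 3. The correction without control replicate 2 gave 823. Correlations of same-numbered libraries were -0.285, 0.181 and 0.253, and those of libraries with unlike numbers ran from -0.280 to 0.292. They were taken on differences from group means that include control replicate 2, so they cannot decide whether the numbers pair the samples. In this balanced design the replicate block leaves every fold change as it is. The count of members with an unadjusted p-value under 0.05 was 0 to 21 when libraries were left out (6 without control replicate 2, 2 without PM2.5 replicate 3, 21 without both), 2 with the correction and 11 with the correction and without control replicate 2. The sterol median ranged from -0.19 to 0.045 when libraries were left out, the fatty acid median from -0.20 to 0.28 and their difference from -0.34 to 0.09.

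Hmgcs1, Fdft1, Dhcr7, Elovl6 and Npc1 kept their sign under every alternative, 5 of 34 members. These are the members whose groups did not overlap over all 6 libraries, so leaving out libraries could not turn their sign. When libraries were left out, the log2 fold change ran from -0.28 to 0.12 for Mvk, -0.21 to 0.37 for Pmvk, -0.091 to 0.77 for Mvd, -0.76 to 1.42 for Idi1, -0.023 to 0.32 for Fdps, -0.25 to 0.16 for Sqle, -0.25 to 0.019 for Lss, -0.21 to 0.38 for Cyp51, -0.58 to 0.72 for Msmo1, -0.58 to 0.14 for Nsdhl, -0.24 to 0.86 for Hsd17b7, -0.10 to 0.51 for Ebp and -0.32 to 0.086 for Sc5d. It ran from -0.29 to 0.065 for Srebf1, -0.19 to 0.24 for Srebf2, -0.22 to 0.043 for Insig1, -0.23 to 0.40 for Insig2, -0.14 to 0.25 for Scap and -0.50 to 0.079 for Stard4. It ran from -0.29 to 1.14 for Acly, -0.14 to 0.17 for Acaca, -0.28 to 0.20 for Fasn, -0.54 to 0.28 for Scd1, -0.23 to 0.66 for Scd2, -0.14 to 0.042 for Acss2, -0.026 to 0.60 for Fads1, -0.25 to 0.55 for Abca1 and -0.61 to 0.51 for Nr1h2.

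Scaling to total reads raised the median of all genes to 0.13 and voom to 0.17, and 7 members turned above 0 under both, at 0.10 and 0.10 for Pmvk, 0.12 and 0.12 for Sc5d, 0.13 and 0.13 for Srebf2, 0.083 and 0.087 for Insig1, 0.093 and 0.10 for Scap, 0.033 and 0.044 for Stard4 and 0.050 and 0.10 for Acss2. Quantile normalization gave 0.029 for Sc5d, 0.079 for Srebf2 and 0.030 for Insig1. The correction turned Pmvk to 0.13, Sqle to -0.061, Srebf2 to 0.026, Scap to 0.0079, Acaca to -0.089 and Scd1 to -0.053. With the correction and without control replicate 2, the turned values were -0.45 for Idi1, -0.047 for Fdps, -0.15 for Sqle, -0.032 for Cyp51, -0.26 for Msmo1, 0.13 for Nsdhl, -0.052 for Hsd17b7, -0.095 for Insig2, -0.31 for Acly, -0.095 for Acaca, -0.33 for Fasn, -0.42 for Scd1, -0.23 for Scd2, -0.049 for Fads1, -0.057 for Fads2 and -0.18 for Abca1. The cause was not tested. With 2 or 3 libraries in a group, a p-value that misses the threshold does not show that levels were alike.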

Other observations

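Fdps, the synthase that makes farnesyl pyrophosphate between Idi1 and Fdft1, was listed at 1.93, 0.824 and 1.58 FPKM in control cells and 2.14, 1.86 and 1.21 FPKM in PM2.5 cells. Idi1 and Fdft1, its neighbours in the pathway, were between 15.97 and 42.0 FPKM in every library except control replicate 2, where Idi1 was at 1.80 FPKM. The Fdps values stood for 45 to 161 reads in a library. Of its exon bases, 26.7% overlap Gm43738 on the same strand, which was listed at 0 to 0.0212 FPKM. In 31-base words on either strand, 27.9% of the Fdps transcript sequence was shared with other genes. The 24.6% shared with Gm43738 itself is not separate from that overlap. The level of Fdps is therefore uncertain, and the part of shared sequence in it was not tested.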
